A study of Rattus norvegicus with 19 samples.

Results

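This comparison sets tissue labelled as deep motor cortex 3 days after a spinal cord lesion against tissue so labelled 1 day after it. It asks which transcripts go back between these early times and which appear for the first time. It rests on 6 of the 19 arrays of the series, 3 for each day, chosen by their titles. Every array holds total RNA of adult female Fischer 344 rats. In the lesioned rats the dorsal funiculus was cut with a wire knife at the third cervical segment, and the deep cortex of the forelimb and hindlimb motor areas, layer V included, was dissected afterwards. A group of 4 control arrays, labelled with time 0, entered no test of day 3 against day 1 and is used only to place the levels. Whether these controls underwent a sham operation, and whether an array held RNA of 1 rat or of several, was not stated in the labels. Since the arrays are named as separate samples only, the p-values measure the spread between these samples, which may be technical.

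The cut interrupts the axons of corticospinal neurons, whose cell bodies lie in layer V, far from the wound. Surgery and injury set off a systemic acute phase response, in which cytokines and glucocorticoid hormones induce genes such as those of the C/EBP transcription factors and the metallothioneins. Astrocytes, endothelial cells and the cells of the brain's coverings respond to such circulating signals, and axotomized neurons switch on injury genes of their own.

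The dissected tissue was a mixture of cells. Over the 6 arrays the synaptic gene Snap25 lay at percentile 99.9 of all probe sets and the myelin gene Mbp at 99.8. The neuronal gene Rbfox3 lay between 93.1 and 94.6, and the astrocyte gap junction gene Gja1 between 91.1 and 92.9. The glutamate transporter gene Slc17a7 of excitatory neurons lay between 84.2 and 85.8. Its log2 mean was 8.6 on both days, below that of the related gene Slc17a6, at 10.69 at day 1 and 10.84 at day 3. Probe sets of the deep-layer genes Tbr1 and Fezf2 and of Gad1, Aqp4 and Mog lay at or below percentile 32.4. Day 1 means were also low for Neurod6 (3.76), Gad2 (4.1), Slc1a2 (3.98) and Mobp (3.82), but 13.19 for Pmp22 of the myelin list. Within the neuronal, astrocyte and oligodendrocyte lists some markers were thus high and these defining ones low. The tissue is named by its labels, and the low values of these defining markers do not bear out the name cortex. List names below, such as layer V, astrocyte or brain surface, describe genes, and the cells that gave the signal were not tested. In bulk tissue of this kind, fewer cells of a type and less RNA per cell cannot be told apart. The 6 arrays were closely alike. Their median correlation with the other arrays was 0.996 to 0.997, and the beta-actin 3' minus 5' difference, a measure of broken RNA, was 0.89 to 1.26 at day 1 and 0.947 to 1.12 at day 3. For arrays, their number limits the precision.

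Between day 1 and day 3 a small set of genes fell and very few rose. The genes that fell encode acute phase and stress factors (Steap4, Cebpd, Maff, Ddit4), secreted signalling proteins and an interferon-induced protein (Igfbp6, Agt, Ifitm3), matrix proteins (Mgp, Spon2, Col8a2, Lamb2), the secreted glial protein Lgi4, a retinoic acid binding protein (Crabp2) and enzymes (Sult1a1, Fmo2, Prodh, Mgst2). Their levels were 1.42-fold to 2.48-fold higher at day 1 than at day 3. The 2 named genes that rose were Nufip2 and Anp32a. At the level of single probe sets, limma called 25 of 31042 (0.0805%) at an adjusted p under 0.05, with 21 lower at day 3 (0.0677%) and 4 higher (0.0129%). The 21 lower probe sets stand for 17 genes, Igfbp6 by 2 probe sets, and for 3 probe sets without a single gene symbol, of which 1 fell by 1.28, from 8.38 ± 0.16 to 7.09 ± 0.08 (SD, n = 3 each; adjusted p = 0.00563 with limma). At an unadjusted p under 0.05 the counts were close to even, 1526 lower and 1481 higher. In all 25 called probe sets the 3 arrays of one day lay beyond the 3 of the other. Over all probe sets the day 3 arrays lay below all day 1 arrays in 8.89% and above them in 7.03%.

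**Figure D1:**
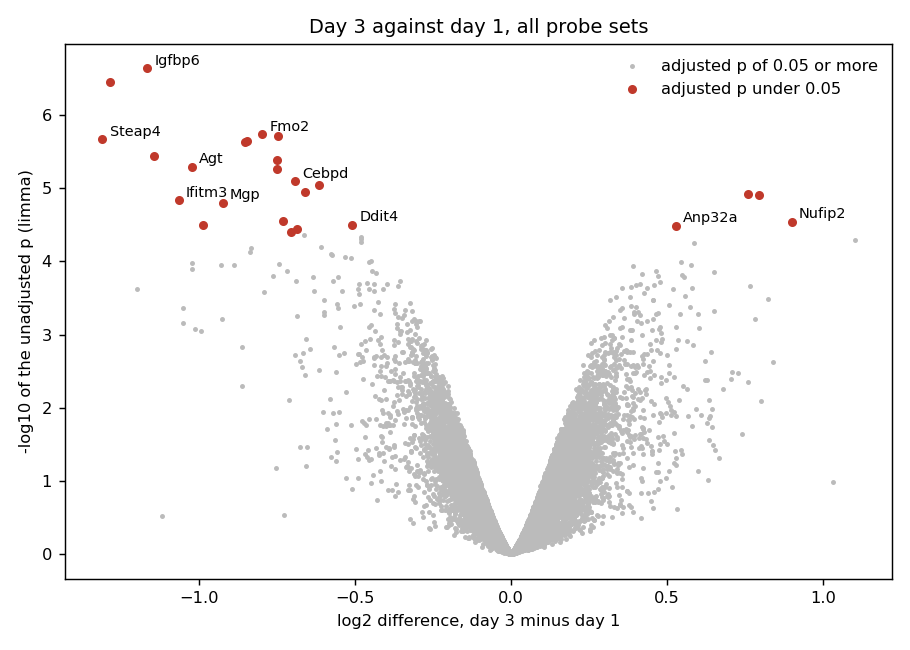
Each point is 1 probe set, with the log2 difference of day 3 minus day 1 on the x axis and -log10 of the unadjusted limma p on the y axis; red points are the 25 called probe sets. The called points lie mostly on the left, 21 below 0 and 4 above.

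The count of calls depended on single arrays. It was 5, 2 and 45 without day1 replicate 1, 2 and 3, and 0, 3 and 16 without day3 replicate 1, 2 and 3. In a fit over all 19 arrays, whose shared spread includes later times, it was 8, with 7 of the 25 among them, namely both probe sets of Igfbp6 and those of Ifitm3, Agt, Spon2, Crabp2 and Lgi4.

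The gene with the largest fall was Steap4, a metalloreductase of iron and copper that inflammation induces. On the log2 scale Steap4 was at 7.08, 7.21 and 7.00 on the day 1 arrays and at 5.92, 5.53 and 5.90 on the day 3 arrays. The controls were at 6.22, 6.13, 6.11 and 6.20, so every day 1 array was above and every day 3 array below all controls. Steap4 fell by 1.31 (SE 0.11, adjusted p = 0.0105 with limma), from 7.10 ± 0.11 to 5.78 ± 0.22 (SD, n = 3 each). Cebpd, the transcription factor C/EBP delta of the acute phase response, went from 7.88, 8.05 and 7.85 at day 1 to 7.24, 7.27 and 7.19 at day 3. It fell by 0.69 (SE 0.07, adjusted p = 0.021 with limma), and its 2 other probe sets had the same sign. The day 3 arrays of Cebpd lay among or just below the controls, whose mean was 7.37. Maff, a small Maf protein that lacks an activation domain of its own, was at 4.83, 5.01 and 4.85 at day 1 and at 4.25, 4.27 and 4.18 at day 3. The groups did not overlap, and Maff fell by 0.66 (SE 0.07, adjusted p = 0.0241 with limma). Its signal was low, under the median of all probe sets, 5.58 to 5.6 on the day 1 and day 3 arrays. Ddit4, an inhibitor of mTOR complex signalling that glucocorticoids and low oxygen induce, was at 10.09, 10.18 and 10.07 at day 1 and at 9.66, 9.56 and 9.60 at day 3. Its fall of 0.51 (SE 0.06, adjusted p = 0.0444 with limma) was the smallest among the called probe sets that were lower; it and Mgst2 were named after their values were seen.

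Igfbp6 had the smallest p of all probe sets. Its product binds insulin-like growth factors, with a preference for IGF-2. Igfbp6 was at 10.80, 11.02 and 10.82 on the day 1 arrays and at 9.72, 9.66 and 9.76 on the day 3 arrays, against a control mean of 10.02 ± 0.13 (SD, n = 4). The 3 day 3 arrays lay below every control array and the 3 day 1 arrays above every one. Igfbp6 fell by 1.17 (SE 0.08, adjusted p = 0.00563 with limma), and its second probe set by 1.14 (adjusted p = 0.0144). It kept its call without day1 replicate 1, 2 or 3 and without day3 replicate 2 or 3, with adjusted p between 0.00823 and 0.0442 in limma, and lost it without day3 replicate 1 (0.0826). Agt encodes angiotensinogen, the precursor of the angiotensin peptides, which astrocytes make in brain. Agt was at 5.85, 6.06 and 5.74 at day 1 and at 4.88, 4.97 and 4.73 at day 3, and the controls lay between 4.81 and 4.92. The day 3 arrays thus lay on both sides of the controls and the day 1 arrays well above them, a fall of 1.02 (SE 0.10, adjusted p = 0.0157 with limma). Agt was a low signal too, above the median of all probe sets (5.58 to 5.6) at day 1 only. Ifitm3, a membrane protein that restricts virus entry, was at 10.38, 10.50 and 10.18 at day 1 and at 9.19, 9.15 and 9.52 at day 3, against a control mean of 9.46. It fell by 1.07 (SE 0.12, adjusted p = 0.0271 with limma). Day3 replicate 3 lay just above the controls and the other two day 3 arrays below them.

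Promoter sequences were set beside these falls because acute phase, interferon and stress factors act through short DNA motifs. The 250 bases before the RefSeq gene start (build GRCr8) were found for 10 of the 17 genes that fell and for both genes that rose. Of these, 3 are shown, those of genes from the acute phase, the interferon and the small Maf groups that hold a searched motif, with each match in capitals.

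Steap4, chr4:27054770-27055019, minus strand: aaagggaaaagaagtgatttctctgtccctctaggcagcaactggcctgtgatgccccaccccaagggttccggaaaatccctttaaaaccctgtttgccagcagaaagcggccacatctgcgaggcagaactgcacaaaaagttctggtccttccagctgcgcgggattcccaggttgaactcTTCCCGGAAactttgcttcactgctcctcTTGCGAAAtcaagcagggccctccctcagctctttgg
Ifitm3, chr1:205541759-205542008, minus strand: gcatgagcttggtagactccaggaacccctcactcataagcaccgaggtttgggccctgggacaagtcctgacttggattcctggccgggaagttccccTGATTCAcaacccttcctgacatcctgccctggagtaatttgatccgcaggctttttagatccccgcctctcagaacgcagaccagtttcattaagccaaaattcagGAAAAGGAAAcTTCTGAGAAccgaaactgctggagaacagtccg
Maff, chr7:112792537-112792786, plus strand: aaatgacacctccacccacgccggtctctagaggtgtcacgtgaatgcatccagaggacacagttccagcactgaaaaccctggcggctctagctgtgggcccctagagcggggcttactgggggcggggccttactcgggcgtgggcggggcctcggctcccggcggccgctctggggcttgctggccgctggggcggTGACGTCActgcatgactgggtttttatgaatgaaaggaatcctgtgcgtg

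The Steap4 window holds a STAT motif (TTCNNNGAA) starting at position -66 from the gene start and a C/EBP motif (TTGCNNAA) at -37. The Ifitm3 window holds an AP-1 motif (TGANTCA) at -151, an interferon stimulated response element at -44 and a STAT motif at -33. The last of these lies next to the interferon element without overlap. The Maff window holds a cyclic AMP response element (TGACGTCA) at -51. Both strands were searched. The STAT motif was in 2 of the 10 windows of genes that fell (Steap4, Ifitm3) and in 7.52% of 27457 rat promoters of the same length. The C/EBP motif was in 2 of 10 (Steap4, Fmo2) against 9.2%, and the metal response core (TGCGCNC) in 2 of 10 (Col8a2, Ddit4) against 12.7%. The interferon element was in 1 of 10 against 3.29%, the AP-1 motif in 1 of 10 against 6.36% and the cyclic AMP element in 1 of 10 against 1.7%. The glucocorticoid palindrome and the retinoic acid DR5 element were in none of the 10 windows, against 0.00364% and 0.0109% of all. The windows of Igfbp6, Sult1a1, Spon2, Crabp2, Nufip2 and Anp32a held no searched motif. A match describes letters in a window and is neither a binding site nor a cause.

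Genes of the extracellular matrix formed the next group. Mgp, matrix Gla protein, which inhibits calcification and is made by vascular and meningeal cells, was at 10.85, 11.08 and 11.29 at day 1. On the day 3 arrays Mgp was at 10.13, 10.14 and 10.17, below all 4 controls, which lay between 10.41 and 11.06. Mgp fell by 0.92 (SE 0.10, adjusted p = 0.0273 with limma), and its day 3 level was 0.63 under the control mean. Spon2, the secreted matrix protein mindin, was at 6.25, 6.47 and 6.41 at day 1 and at 5.48, 5.52 and 5.58 at day 3, a fall of 0.85 (SE 0.07, adjusted p = 0.0105 with limma) to the control mean of 5.56. In Col8a2, a chain of the short-chain collagen VIII of basement membranes, the 3 arrays of day 1 were nearly equal at 7.93, 7.97 and 7.95. The day 3 arrays were at 7.06, 7.28 and 7.26 and did not overlap them, a fall of 0.75 (SE 0.07, adjusted p = 0.0157 with limma). Lamb2, the laminin beta 2 chain of vascular basement membranes, fell by 0.71 (SE 0.09, adjusted p = 0.0498 with limma), from 7.31, 7.35 and 7.63 to 6.75, 6.73 and 6.68, and of all called probe sets it lay nearest the threshold. Lgi4, a secreted protein known for its role in peripheral myelination, went from 9.23, 9.37 and 9.06 to 8.60, 8.50 and 8.51 (fall of 0.69, SE 0.09, adjusted p = 0.0465 with limma). Its day 3 arrays lay at the control mean of 8.58.

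The last group that fell was made of enzymes and a carrier. Sult1a1, a sulfotransferase of phenols, was at 9.31, 9.69 and 9.42 at day 1 and at 8.27, 8.58 and 8.60 at day 3, a fall of 0.99 (SE 0.12, adjusted p = 0.0444 with limma). Prodh, the first enzyme of proline breakdown, was at 7.68, 7.73 and 7.65 and then at 7.02, 6.90 and 6.90, a fall of 0.75 (SE 0.06, adjusted p = 0.0105 with limma). The day 3 level of Prodh was that of the controls (6.93), while its other probe set had the opposite sign, so the fall rests on 1 of 2 probe sets. Fmo2, a flavin-containing monooxygenase, was at 6.11, 6.25 and 6.24 at day 1 and at 5.33, 5.46 and 5.40 at day 3, a fall of 0.80 (SE 0.07, adjusted p = 0.0105 with limma) that its 2 other probe sets shared in sign. All 3 day 3 arrays of Fmo2 lay below the 4 controls, which were at 5.81, 5.81, 6.60 and 5.68. Crabp2, which carries retinoic acid to its nuclear receptors, was at 8.41, 8.54 and 8.70 and then at 7.73, 7.79 and 7.92 (fall of 0.73, SE 0.09, adjusted p = 0.0444 with limma). Mgst2, a microsomal glutathione S-transferase, was at 6.71, 6.86 and 6.72 and then at 6.15, 6.12 and 6.16 (fall of 0.62, SE 0.06, adjusted p = 0.0216 with limma). For both, day 3 stood at the control level, 7.77 for Crabp2 and 6.13 for Mgst2.

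**Figure D2:**
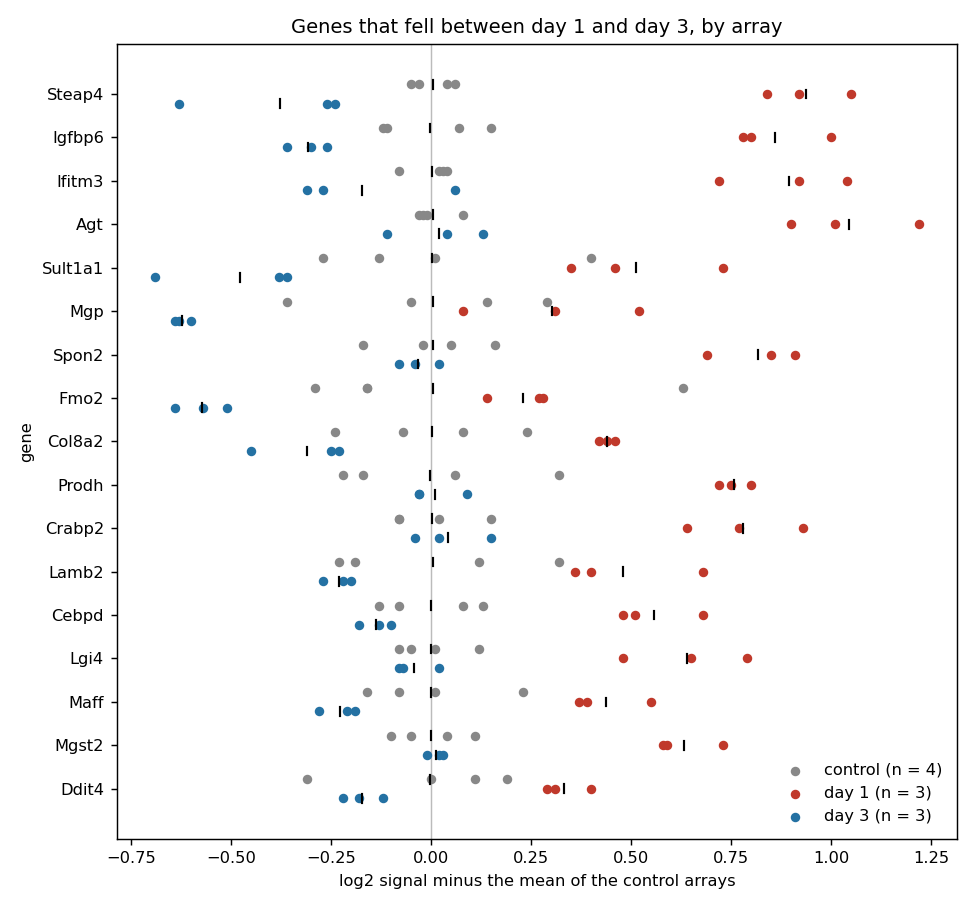
Log2 signal minus the control mean (x axis) of each array for the 17 genes (y axis) that fell between day 1 and day 3; grey points are the 4 control, red the 3 day 1 and blue the 3 day 3 arrays, and a tick marks each group mean. The day 1 and day 3 points do not overlap in any of the 17 genes, and in most the blue points lie at or left of the grey ones.

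Setting these levels beside the controls separates a return from a new departure. In 15 of the 17 genes the control mean was nearer to day 3 than to day 1, so the larger part of the fall lay above control. For Sult1a1 the margin was small, with differences from control of 0.51 at day 1 and -0.48 at day 3. The control mean was nearer day 1 only for Mgp and Fmo2. Of the 21 lower probe sets the share was 19 (90.5%), against 54.3% of all probe sets and 64.2% of the 1526 lower at an unadjusted p under 0.05. The 17 genes were selected for a high day 1 and a low day 3, so their place beside control is a description. All day 1 arrays lay above all controls in 14 of the 17 genes, as in 4.4% of all probe sets. At day 3 the mean was within 0.1 of control in 6 (Agt, Prodh, Spon2, Crabp2, Lgi4, Mgst2) and below control in 13, beside 51.3% of all probe sets. In 6 genes every day 3 array lay below every control array, as in 2.82% of all probe sets. At day 7 the mean was nearer the day 3 than the day 1 level in 16 of the 17. The same held for 16137 of all 31042 probe sets and for 983 of the 1526 lower at an unadjusted p under 0.05. A limma fit of the 10 control, day 1 and day 3 arrays called 10 of the 17 for day 1 against control, beside 37 of all 31042 probe sets. For day 3 against control it called 0 of the 17 and 0 of all probe sets, so this 0 does not show a return. There 7 of the 17 had an unadjusted p under 0.05, beside 1263 of all probe sets. These comparisons share arrays with that of the days. Leaving out each control array in turn left 17 to 19 of the 21 lower probe sets nearer day 3. Mgp stayed nearer day 1 in all 4 cases. Fmo2 moved to the day 3 side without control replicate 3, while Sult1a1 moved to the day 1 side without control replicate 1 or 4, Col8a2 without control replicate 4 and Ddit4 without control replicate 3. A check that does not use the difference between the days, the mean of both times minus control in 10 arrays, called 1 probe set, one without a single gene symbol, with 1474 at an unadjusted p under 0.05. That count was 8 without day1 replicate 3, 2 without control replicate 4, 1 without day3 replicate 3 and 0 without each of the other 7 arrays.

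Few genes rose, and their controls were scattered. Nufip2, an RNA-binding partner of the fragile X protein, was at 5.26, 5.26 and 5.03 at day 1 and at 6.27, 5.88 and 6.09 at day 3. It rose by 0.90 (SE 0.11, adjusted p = 0.0444 with limma), a 1.87-fold rise, and its 3 other probe sets had the same sign. The controls of Nufip2 were at 6.08, 5.61, 4.17 and 6.03, so 2 of them lay among the day 3 arrays, 1 between the days and control replicate 3 far below both. Anp32a, a histone-binding protein of the nucleus, was at 6.83, 6.84 and 6.70 at day 1 and at 7.29, 7.30 and 7.37 at day 3, a rise of 0.53 (SE 0.06, adjusted p = 0.0444 with limma). Its controls were at 7.66, 7.49, 6.41 and 7.37, again with control replicate 3 lowest and the others at or above day 3. The median control SD was 0.51 in the 4 higher probe sets, 0.14 in the 21 lower ones and 0.10 over all probe sets. Of the 4 higher probe sets the controls were nearer day 3 in 2, and in all 4 without control replicate 3.

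In neither Nufip2 nor Anp32a did all day 3 arrays lie above all controls. By their p, 8 further genes that were higher at day 3 followed without passing the threshold. Ddx6, an RNA helicase of processing bodies, was at 4.77, 4.55 and 4.52 at day 1 and at 6.05, 5.47 and 5.63 at day 3 (difference 1.10, adjusted p = 0.0551 with limma). Abca1, the cholesterol exporter, was at 4.35, 4.38 and 4.32 and then at 4.81, 4.92 and 5.07 (difference 0.58, adjusted p = 0.0558 with limma). Ppp4c, Grm8, Usf3, Tbx3, Adam22 and Reln differed by 0.39 to 0.58, with adjusted p between 0.0759 and 0.0854. Of the 10 genes, control replicate 3 was the lowest control in 6, against 27.9% of all probe sets. Reln, which encodes the secreted glycoprotein reelin, was above both other groups at day 3: its day 1 arrays were at 8.71, 8.52 and 8.78, its controls between 8.50 and 9.01 and its day 3 arrays at 9.24, 9.28 and 9.13. The difference of 0.55 did not pass the threshold (adjusted p = 0.0854 with limma).

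**Figure D3:**
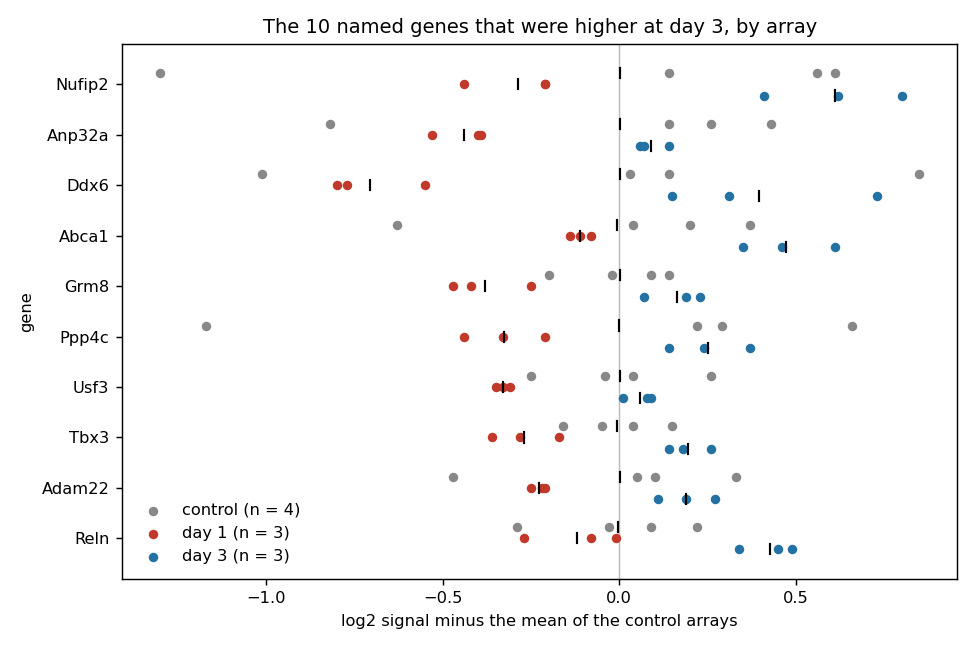
Log2 signal minus the control mean (x axis) of each array for the 10 named genes (y axis) that were higher at day 3; grey points are the 4 control, red the 3 day 1 and blue the 3 day 3 arrays, ticks are group means, and only Nufip2 and Anp32a passed the threshold. In 6 genes 1 grey point, control replicate 3, is the lowest control, and in Reln all blue points lie right of every grey and red one.

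Gene lists, with 1 probe set per gene, show how the rest of each pathway behaved. Some genes are on more than 1 list, so the counts of different lists are not independent. Steap4 counts in the acute phase and reactive astrocyte lists, and Cebpd in the glucocorticoid and acute phase lists. C1qa, C1qb and C1qc count in the complement and microglia lists, and Crabp2 in the retinoid and meningeal lists. Over all 14217 genes, 5.94% were lower and 4.49% higher at an unadjusted p under 0.05, and the median difference was -0.01. Beside that, 11 of 27 measured glucocorticoid target genes were lower and 1 higher at this unadjusted level, with a list median of -0.17. The control mean was nearer day 3 in 12 of the 27, beside 54.3% of all probe sets. Called among them were Cebpd, Ddit4 and Sult1a1. The metallothionein gene Mt2A was at 8.71, 9.02 and 8.80 at day 1 and at 8.16, 8.22 and 8.16 at day 3, where the controls lie (8.14 ± 0.15, SD, n = 4). Its difference of -0.66 just missed the threshold (adjusted p = 0.0519 with limma). Ccn2, the connective tissue growth factor gene, was 1.01 lower (adjusted p = 0.162), and at 6.29, 6.14 and 6.07 its day 3 arrays were below every control. Fkbp5, a chaperone gene induced by the glucocorticoid receptor, was 0.30 lower. The receptor's own gene Nr3c1 was 0.20 higher.

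Of 37 acute phase and cytokine genes 14 were lower and 1 higher at an unadjusted p under 0.05 (median -0.11), with Steap4 and Cebpd called. Lbp, which carries bacterial lipopolysaccharide, was at 4.83, 5.15 and 4.86 at day 1 and at 4.20, 4.05 and 4.35 at day 3, near the control mean of 4.13 (difference -0.75, adjusted p = 0.0759 with limma). Cp, the copper-carrying ceruloplasmin, was 0.69 lower (adjusted p = 0.207), Cebpb 0.45 lower (0.153) and the signalling inhibitor gene Socs3 0.16 lower. Reactive astrocyte genes had 8 of 22 lower and 1 higher (median -0.14). Gfap, the intermediate filament of astrocytes, was at 5.77, 5.91 and 5.77 at day 1 and at 4.93, 4.78 and 5.24 at day 3, without overlap. Its difference was -0.83 (SE 0.11, adjusted p = 0.063 with limma), which did not pass. Its signal was low, with day 1 just above and day 3 under the median of all probe sets, 5.58 to 5.6 on these arrays. S1pr3, a receptor of sphingosine 1-phosphate, was 0.36 lower (adjusted p = 0.0911). General astrocyte markers had 1 of 14 lower and 2 higher at the unadjusted level and a median of -0.03. For reactive genes the arrays lay 0.19 to 0.26 above the control mean at day 1 and between -0.11 and 0.12 at day 3, and for general markers 0.03 to 0.15 above it at day 1 and 0.04 to 0.07 at day 3. Neither the difference between these lists nor the cells it came from were tested.

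**Figure D4:**
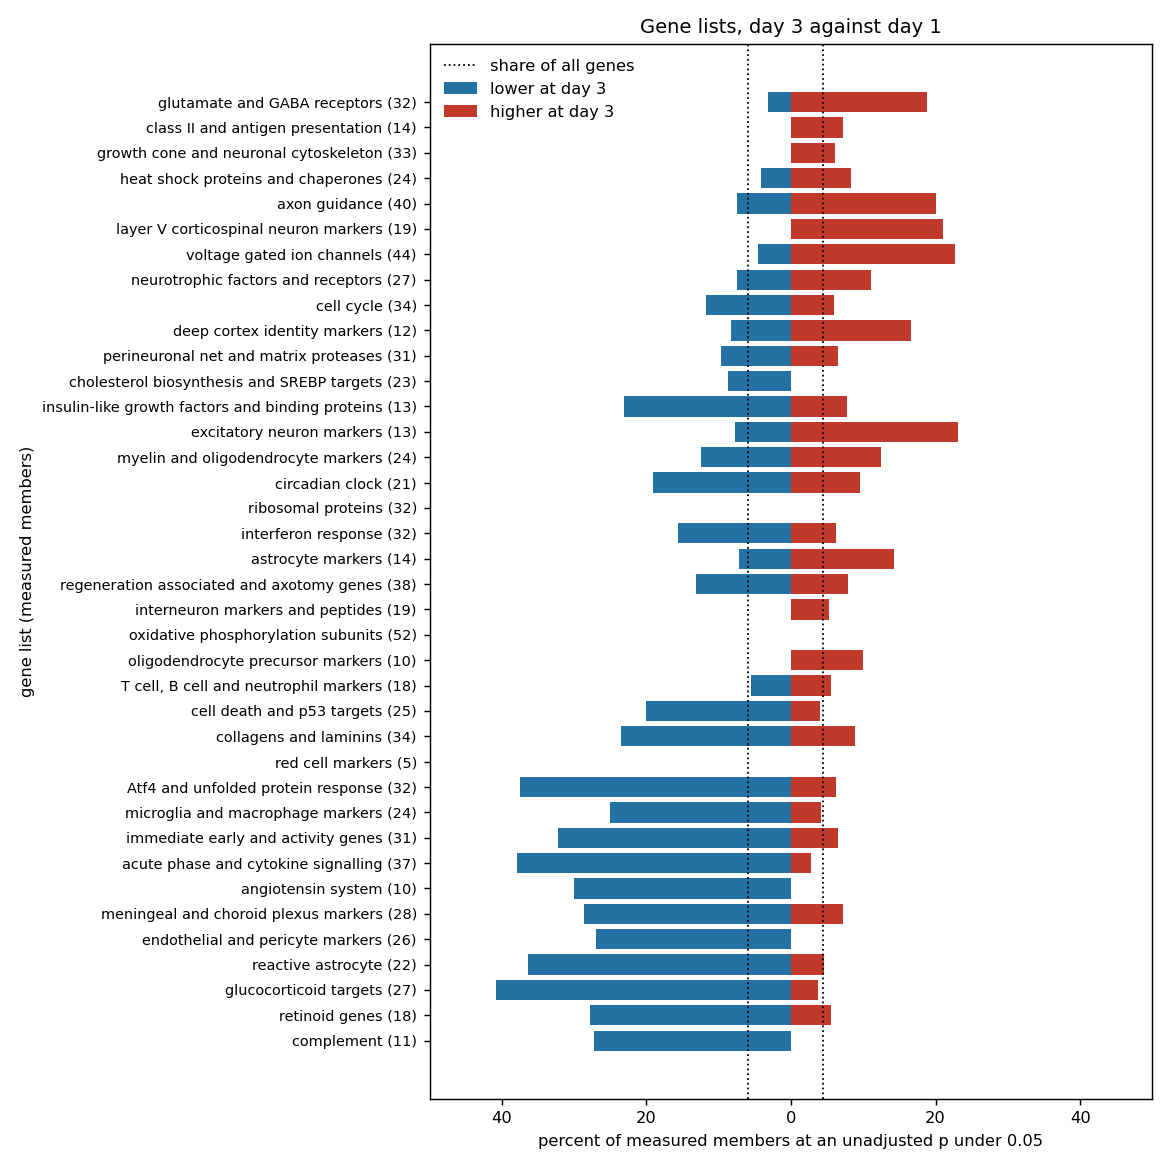
For each gene list (y axis, measured members in brackets), the percent of members at an unadjusted p under 0.05 that were lower (blue, left) or higher (red, right) at day 3; dotted lines mark the shares of all genes, 5.94% and 4.49%. Glucocorticoid, acute phase, stress response and reactive astrocyte lists reach farthest left, and ion channel, excitatory and layer V neuron lists farthest right.

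Stress response and activity genes were lower more often than higher. In the list of Atf4 targets and the unfolded protein response, 12 of 32 were lower and 2 higher at an unadjusted p under 0.05, with a median of -0.09. Atf4 itself, the transcription factor of the integrated stress response, was at 10.98, 11.03 and 11.03 at day 1 and at 10.76, 10.76 and 10.77 at day 3. Its controls, between 11.00 and 11.05, were level with day 1, and every day 3 array lay below every other array (difference -0.25, adjusted p = 0.207 with limma, not past the threshold). Of its target genes Psat1 was 0.28 lower, Chac1 0.28 lower and Trib3 0.27 lower, and the controls lay between both days or at day 3. Of 31 immediate early genes 10 were lower and 2 higher (median -0.11, -0.15 to -0.06 over the alternatives). Fos was 0.44 lower (adjusted p = 0.311), Egr1 0.42 lower (0.401), Nr4a1 0.36 lower (0.164), Arc 0.28 lower and Bdnf 0.28 lower. Rem2, a GTPase that restrains calcium channels, was among the 2 that were higher, at 8.17, 8.05 and 8.26 and then at 8.44, 8.46 and 8.46, still below its 4 controls at 8.50 to 8.72 (difference 0.29, adjusted p = 0.225 with limma).

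Genes of neuronal membranes and wiring were higher more often than lower. Of 44 voltage gated ion channel genes 10 were higher and 2 lower at an unadjusted p under 0.05, beside 4.49% and 5.94% of all genes, although the median was only 0.02 (0.01 to 0.06 over the alternatives). The calcium channel gene Cacna1h was at 5.22, 4.92 and 4.90 at day 1 and at 5.33, 5.97 and 5.60 at day 3 (difference 0.62, adjusted p = 0.262 with limma), but its controls spanned both, from 4.61 to 6.32. Scn1a, a sodium channel of fast-spiking neurons, was at 9.75, 9.57 and 9.66 and then at 9.97, 9.92 and 9.86, with controls of 9.68 to 9.78 (difference 0.26, adjusted p = 0.27 with limma). Day 3 was thus above every control and day 1 array in Scn1a. Glutamate and GABA receptor genes had 6 of 32 higher and 1 lower (median 0.06), with Gabra5 0.30, Gria3 0.29 and Gabra2 0.45 higher. Axon guidance genes had 8 of 40 higher and 3 lower (median 0.04). The semaphorin receptor gene Plxna2 was at 7.30, 7.19 and 7.18 at day 1 and at 7.67, 7.58 and 7.56 at day 3 (difference 0.38, adjusted p = 0.106 with limma). The semaphorin gene Sema6a (0.39) and the neuropilin gene Nrp1 (0.34) were higher in the same way, while the netrin gene Ntn1 was 0.39 lower. None of these list members was called.

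Growth cone genes gave 24 of 33 above 0, but 2 higher and 0 lower at the unadjusted level. Marcks, a membrane and actin regulator of growing axons, was at 9.83, 9.85 and 9.92 at day 1 and at 10.39, 10.21 and 10.41 at day 3, and its 5 other probe sets had the same sign (difference 0.47, adjusted p = 0.0854 with limma). Its controls lay between 9.87 and 10.32, so day 1 was the lower group. Gap43, the classic growth cone protein, differed by 0.04. Layer V markers had 4 of 19 higher and 0 lower (median 0.04), among them Bcl11b at 0.26 (adjusted p = 0.506 with limma). The others on this list were Ldb2, Cntn6 and Cux2, although Cux2 is a marker of upper cortical layers. The arrays of the days were not fully apart in Bcl11b and Ldb2. Cntn6 and Cux2 lay under the median signal of the arrays (5.58 to 5.6), and the other probe set of Cux2 had the opposite sign. The count is thus no measure of layer V neurons. Crym, another layer V gene, differed by 0.04. Regeneration associated genes were mixed, with 3 of 38 higher and 5 lower. Atf3, the axotomy transcription factor, was at 7.16, 7.17 and 8.64 at day 1 and at 6.82, 6.76 and 7.11 at day 3, against controls of 5.84 to 6.11. It was above control on all 6 arrays and was not called between the days (difference -0.75, adjusted p = 0.549 with limma). Jun differed by -0.06 and changed sign without day1 replicate 3.

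Complement, microglia and interferon genes were lower more often than higher at an unadjusted p under 0.05, and 1 array weighed on the complement and microglia lists. Over all genes the shares were 5.94% lower and 4.49% higher. Complement genes had 3 of 11 lower and 0 higher (median -0.33). Their mean minus control was 0.140, 0.232 and 0.325 on the day 1 arrays and -0.168, -0.163 and 0.342 on the day 3 arrays, so day3 replicate 3 was as high as day 1. The median was -0.51 without that array and -0.20 without day1 replicate 3, -0.21 without day3 replicate 1 and -0.21 without day3 replicate 2. Microglia and macrophage markers had 6 of 24 lower and 1 higher (median -0.10, -0.21 to -0.04 over the alternatives), and here too day3 replicate 3, at 0.229, was level with the highest day 1 array at 0.236. The complement gene C1qc, a chain of the C1q complex, was at 7.36, 7.53 and 7.46 at day 1 and at 6.55, 6.67 and 7.07 at day 3 (difference -0.69, adjusted p = 0.133 with limma). Cd163, the haemoglobin scavenger receptor of perivascular macrophages, was at 4.52, 4.36 and 4.48 and then at 4.00, 4.03 and 3.98, the control level (difference -0.45, adjusted p = 0.0759 with limma). P2ry12, the purinergic receptor of resting microglia, was at 5.66, 5.32 and 6.10 and then at 6.24, 6.15 and 6.48 (difference 0.59, adjusted p = 0.35 with limma). These did not pass the threshold. Of 32 interferon response genes 5 were lower and 2 higher (median -0.03, -0.07 to 0.04 over the alternatives), with Ifitm3 called and its relatives Ifitm1 and Ifitm2 0.33 and 0.32 lower. Class II antigen presentation genes had 1 of 14 higher and 0 lower. Their invariant chain Cd74 was at 8.28, 8.25 and 8.84 at day 1 and at 8.64, 8.62 and 9.37 at day 3, against controls of 9.17 to 9.42. On either day replicate 3 was the highest array, below every control at day 1 and within the control range at day 3. The other arrays of both days lay below every control (difference between the days 0.42, adjusted p = 0.604 with limma).

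Markers of vessels and of the brain surface were also lower more often than higher. Of 26 endothelial and pericyte genes 7 were lower and 0 higher at an unadjusted p under 0.05, 24 were below 0 and the median was -0.14 (-0.18 to -0.08 over the alternatives). The drug transporter gene Abcg2 was at 9.12, 9.15 and 9.36 at day 1 and at 8.78, 8.83 and 8.70 at day 3, level with its controls at 8.70 to 8.86 (difference -0.44, adjusted p = 0.127 with limma). Cldn5, the tight junction gene of brain endothelium, was 0.21 lower (adjusted p = 0.536). Of 28 meningeal and choroid plexus genes 8 were lower and 2 higher (median -0.12, -0.19 to -0.10 over the alternatives), and 3 were called, Spon2, Mgp and Crabp2. The list mean was 7.15 to 7.44 on the day 1 arrays, 6.99 to 7.18 on the day 3 arrays and 7.19 to 7.42 in control. It lay below the lowest control on all 3 day 3 arrays and overlapped day 1 slightly. The defining meningeal genes differed in sign. Dcn was 0.15 lower, Ogn 0.32 lower and Omd 1.05 lower, but Lum, which encodes lumican, was at 9.12, 9.09 and 9.83 at day 1 and at 9.92, 9.79 and 10.25 at day 3, 0.64 higher (adjusted p = 0.37 with limma). The choroid plexus genes Ttr and Folr1 differed by -0.01 and 0.05. Cldn11, a tight junction gene of myelin and of the arachnoid, was 1.02 lower (adjusted p = 0.0822) while the myelin gene Mbp differed by -0.07. The part of meningeal and vascular tissue in the falls of Spon2, Mgp, Crabp2, Lamb2 and Col8a2 was not tested.

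Collagens and laminins had 8 of 34 lower and 3 higher (median -0.07, -0.11 to -0.04 over the alternatives). Besides Lamb2, the collagen VI gene Col6a1 was 0.66 lower, and Col14a1 (0.64) and Col15a1 (0.49) were higher; for these 3 day 3 was closer to control than day 1. Retinoid genes had 5 of 18 lower and 1 higher (median -0.17). That median was -0.09 without day1 replicate 2 or without day3 replicate 1, -0.11 without day3 replicate 2 and -0.07 when every probe set of a gene was counted, and the list means of day1 replicate 1 and day3 replicate 3 overlapped. Crabp2 was called, with the retinal dehydrogenase gene Aldh1a3 0.58 lower and Aldh1a1 0.50 higher. Among 13 genes of the insulin-like growth factor system 3 were lower and 1 higher (median -0.01), with Igfbp6 called; Igfbp7 was 0.36 lower (adjusted p = 0.139). Of 10 angiotensin genes 3 were lower and 0 higher (median -0.12), Agt by 1.02 and the receptor gene Agtr1a by 0.24 below day 1, the latter not past the threshold (adjusted p = 0.319).

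**Figure D5:**
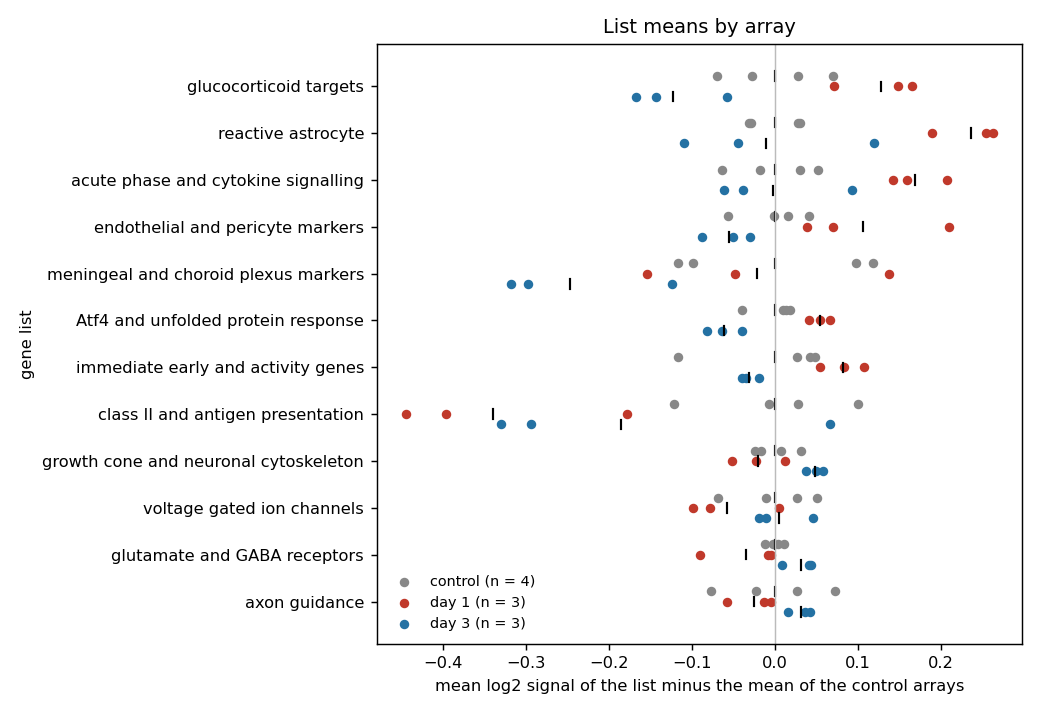
Mean log2 signal of 12 gene lists on each array minus the control mean (x axis); grey points are the 4 control, red the 3 day 1 and blue the 3 day 3 arrays, and ticks are group means. Glucocorticoid and reactive astrocyte means are right of 0 on every day 1 array, and the meningeal mean is left of 0 on every day 3 array, between -0.32 and -0.12.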

How the data were processed

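Biotin-labelled cRNA of each sample was hybridized to an Affymetrix rat array. The deposited values are on the log2 scale and were made by the authors with RMA, per the submitters' processing notes, which name no version. RMA brings all arrays to the same distribution, which would hide a change shared by most transcripts. Scan dates were not used here. Of 31099 probe sets, 57 array controls were left out, which left 31042. The platform's annotation gave the symbols. A newer gene table gave the current symbol of 20758 probe sets by gene ID and of 2 by accession, 66 kept the old symbol, 436 had several and 9780 none.

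Day 3 was compared with day 1 (3 arrays each) with limma 3.58.1 in R 4.3.3, in a fit of these 6 arrays only, since the comparison concerns no other group. eBayes defaults gave 4 residual and 4.21 prior degrees of freedom. Tests were two-sided with Benjamini-Hochberg adjustment over all probe sets and a threshold of 0.05. Differences are on the log2 scale, day 3 minus day 1. The mean of both days minus control was fitted on 10 arrays. Figures used matplotlib 3.10.9 (Python 3.11.15).

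The 38 gene lists (949 of 1084 genes matched, with the brightest probe set over the 6 arrays for each gene) and the comparison itself were chosen with earlier results of these data known. Named were up to 15 called genes per direction by size of change, filled to 10 by smallest p with non-overlapping arrays, up to 3 members per list by p, and Pla1a, Atf3, Jun, Fos, Cd74, Lum, Vip, Npy and Gal. Further list members were named after their values were seen. A called gene is given by its probe set of smallest p. Alternatives were other sets of arrays in the fit, array weights, trended and robust eBayes, a filter at the median signal, 1 probe set per gene, centring, a second quantile normalization, a minimum difference of 0.5, the replicate number as a block, and each replicate left out.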

Additional observations from a re-analysis of the deposited data

Results flagged for a closer look

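In the 25 called probe sets the 4 control arrays were checked for 1 array far from the others; groups of 3 arrays were not tested. In 3 probe sets the gap to the nearest other array, as a share of the whole range, was above Dixon's critical value for 4 samples. Chance flags about 1 in 20 groups. For Fmo2 the share was 0.853, since control replicate 3 was at 6.60 and the next control at 5.81. This array sets which day the control mean of Fmo2 is nearer to, as given above. For Ifitm3 the share was 0.868, with the lowest control at 9.38 and the next at 9.48. For Agt it was 0.862, with the highest control at 4.92 and the next at 4.83. In Ifitm3 and Agt the whole range of the controls is small beside the fall between day 1 and day 3, which was 1.07 and 1.02. No control array enters the test of day 3 against day 1.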

How the results depend on the processing

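The count of 25 called probe sets varied with the processing. It was 8 with all 19 arrays in the fit, 63 with 17 arrays, without day14 replicate 2 and day49 replicate 2, 83 with trend and robust settings, 131 with array weights (49 higher, 82 lower), 16 above the median signal and 49 with 1 probe set per gene. It was 0 with the replicate number as a block (2484 at an unadjusted p under 0.05 in limma). Deviations from the group mean correlated by 0.0317, -0.275 and -0.256 in like-numbered arrays, and by -0.0193 to 0.308 in unlike-numbered ones. With 3 arrays a day these values cannot decide whether the numbers pair the arrays. Leaving out 1 array gave 0 to 45. Of the 25, all were among the calls with trend and robust settings, with array weights, with centring (30 calls) and with a minimum difference of 0.5 (25), and 24 with a second quantile normalization (26). The mean of both days minus control called 1 probe set, 0 with all 19 arrays, and 0 to 8 with 1 array left out. The number of called probe sets whose control mean was nearer day 3 was 21, and 19 to 23 with 1 control left out, a choice made after seeing the data. Among named genes the difference changed sign in Jun (0.04), Vip (0.05) and Gal (0.08) without day1 replicate 3 and in Gal (0.10) without day3 replicate 1; over the arrays left out it was -0.15 to 0.04 for Jun, -0.38 to 0.05 for Vip and -0.11 to 0.10 for Gal. Of the other values of named genes 1391 kept direction and side of the threshold, 66 passed it anew and 129 no longer passed it. List medians moved little in 319 cases and by more than the replicate spread in 23. For arrays, the number of replicates limits what can be called.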

Other observations

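Several clock genes, named after their values were seen, differed among the day 1 arrays. Bmal1, the activator of the clock, was at 7.19, 7.15 and 6.30 on the day 1 arrays and at 6.43, 6.45 and 6.29 on the day 3 arrays, with controls of 6.23 to 6.54. Dbp, an output gene of the clock, was at 5.88, 6.06 and 7.18 at day 1 and at 6.86, 6.74 and 7.08 at day 3, and the repressor gene Nr1d2 at 8.01, 7.86 and 8.53 and then at 8.61, 8.71 and 8.69. In all 3 genes day1 replicates 1 and 2 stood apart from day1 replicate 3, which lay at or near the day 3 arrays. The difference of Bmal1 was -0.49 (adjusted p = 0.514 with limma), of Nr1d2 0.54 (0.319) and of Dbp 0.52 (0.631), and none passed the threshold. Without day1 replicate 3 Nr1d2 was 0.74 higher at day 3 and passed it (adjusted p = 0.0183 with limma), against adjusted p between 0.0674 and 1 under the other alternatives. Of 21 clock genes 4 were lower and 2 higher at an unadjusted p under 0.05. Atf3 on the same array, day1 replicate 3, was at 8.64 against 7.16 and 7.17 on the other two day 1 arrays.

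Genes of basic cell machinery differed by very small amounts. Of 32 cytosolic ribosomal protein genes 28 were below 0, with a median of -0.03, and of 52 oxidative phosphorylation genes 46 were, with a median of -0.04, against a median of -0.01 over all genes, of which 54.2% were below 0. The oxidative phosphorylation means overlapped between day 1 (0.008 to 0.055 above control) and day 3 (-0.035 to 0.028), all within the control range of -0.068 to 0.062. None of either list reached an unadjusted p under 0.05, and their medians stayed below 0 under each alternative run, at -0.05 to -0.01 for both. Blood markers differed little, with Hbb at -0.08 and the neutrophil gene S100a8 at -0.03. The injury neuropeptide genes showed no call between the days, with Vip at -0.18, Npy at 0.15 and Gal at -0.01.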
